A study of Homo sapiens with 4 samples.

Results

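Open chromatin was examined at 8 genes that write, read or counter repressive chromatin: DNMT1, DNMT3A, DNMT3B, EZH2, TRIM28, CBX5, SETDB1 and SMARCA4. The members were the listed ATAC-seq summits whose position lay within 10 kb of the span of one of these genes in hg19. This choice of summits used position only, but the genes were chosen with earlier results of these data known. The spans, in kb of hg19, were 10244 to 10306 on chromosome 19 for DNMT1, 25455 to 25566 on chromosome 2 for DNMT3A and 31350 to 31397 on chromosome 20 for DNMT3B. They were 148504 to 148582 on chromosome 7 for EZH2, 59055 to 59062 on chromosome 19 for TRIM28 and 54624 to 54674 on chromosome 12 for CBX5. SETDB1 spans 150898 to 150937 on chromosome 1 and SMARCA4 spans 11071 to 11173 on chromosome 19. There were 186 such summits in 136 regions, of 371521 summits in 197823 regions in the list. ATAC-seq marks open DNA by the cuts of the Tn5 transposase. It was carried out on 2 multiH1 knock-down samples, which express an shRNA against several variants of the linker histone H1, and on 2 control samples with a random shRNA. Both kinds were derived from T47D-MTVL, a luminal breast cancer line with a stably integrated luciferase reporter driven by the MMTV promoter. Whether the samples came from separate cultures or from 1 clone is not given in the sources used here.

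A single peak list was analysed, with the name 225sh_DifferentialRDsh in its track line. Neither the samples that went into it nor the meaning of Differential is given in the sources used here, so whether a summit is open in the knock-down, in the control or differs between them is unknown. The labels use RDsh for the random shRNA but do not use 225sh, which is taken here for the multiH1 shRNA because the deposited name of the list has multiH1sh in its place. No value in the list belongs to a sample. There is thus no replicate error for any value below, no test of knock-down against control was possible, and neither gain nor loss of accessibility at these genes was measured. The libraries come from many cells at once, so a site open in few cells and a site little open in many cannot be told apart.

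DNA methylation at CG dinucleotides is placed by DNMT3A and DNMT3B and copied to the new strand after replication by DNMT1. Heterochromatin is marked by methylated histone H3: EZH2 is the catalytic subunit of Polycomb repressive complex 2, which methylates lysine 27, and SETDB1 methylates lysine 9. TRIM28, also called KAP1, is brought to DNA by KRAB zinc finger proteins and recruits SETDB1, and CBX5 is the heterochromatin protein HP1 alpha, which binds methylated lysine 9. SMARCA4, also called BRG1, is an ATPase of the SWI/SNF remodelling complex, which moves nucleosomes and is not itself a heterochromatin enzyme. Linker histones sit on nucleosomes and help to compact chromatin.

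Promoter sequences from RefSeq (GRCh38.p14, 250 bases before to 50 after a transcript start) are shown because summits lay at the gene starts. The DNMT3B sequence is an exception: it belongs to a start 17.5 kb inside the gene, the only one of DNMT3B in the table, and not to the gene start that holds summits. Sequences are given for the 3 DNA methyltransferases and for CBX5, which together with DNMT3B had the summits of most reads at a gene start. EZH2 and the second DNMT3A start, 0.665 kb from the first, were added after their values were seen. The summits are on hg19 and no position was converted. Each sequence runs 5′ to 3′ along the gene, and capitals mark, on either strand, the CCAAT box, the SP1 letters GGGCGG, the E2F letters TTTNGCGC, the NRF1 motif, the CRE letters TGACGTCA, the ETS letters CCGGAAG or the YY1 letters AAGATGGC. The DNMT1 start is at chr19:10194904-10195203, the first DNMT3A start at chr2:25342541-25342840, the second at chr2:25341876-25342175 and the internal DNMT3A start at chr2:25252266-25252565. The internal DNMT3B start is at chr20:32779602-32779901, the first EZH2 start at chr7:148884242-148884541 and the first CBX5 start at chr12:54280073-54280372. DNMT3B is on the plus strand and the other 4 genes are on the minus strand.
DNMT1: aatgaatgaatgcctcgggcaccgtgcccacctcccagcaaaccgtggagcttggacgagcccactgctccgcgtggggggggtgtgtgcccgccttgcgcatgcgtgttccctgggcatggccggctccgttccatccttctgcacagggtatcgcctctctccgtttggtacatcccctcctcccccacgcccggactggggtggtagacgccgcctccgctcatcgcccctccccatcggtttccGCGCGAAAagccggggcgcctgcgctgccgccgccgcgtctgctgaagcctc
DNMT3A, first start: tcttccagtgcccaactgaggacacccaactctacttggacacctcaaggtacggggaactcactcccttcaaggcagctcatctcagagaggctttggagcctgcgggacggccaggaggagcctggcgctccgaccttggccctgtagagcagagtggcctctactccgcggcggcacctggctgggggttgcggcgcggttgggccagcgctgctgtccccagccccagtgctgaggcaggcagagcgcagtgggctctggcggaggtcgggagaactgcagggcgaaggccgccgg
DNMT3A, second start: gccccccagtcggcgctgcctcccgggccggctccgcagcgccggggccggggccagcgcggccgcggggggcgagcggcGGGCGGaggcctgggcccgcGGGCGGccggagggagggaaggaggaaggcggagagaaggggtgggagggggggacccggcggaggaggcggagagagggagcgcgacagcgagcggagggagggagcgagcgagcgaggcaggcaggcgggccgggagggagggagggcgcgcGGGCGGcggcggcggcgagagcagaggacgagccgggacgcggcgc
DNMT3A, internal start: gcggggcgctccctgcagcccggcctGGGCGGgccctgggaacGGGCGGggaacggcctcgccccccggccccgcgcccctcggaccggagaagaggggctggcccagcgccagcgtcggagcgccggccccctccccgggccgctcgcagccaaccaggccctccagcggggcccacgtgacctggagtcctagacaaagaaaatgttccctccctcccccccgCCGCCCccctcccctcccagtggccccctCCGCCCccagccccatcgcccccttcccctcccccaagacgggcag
DNMT3B, internal start: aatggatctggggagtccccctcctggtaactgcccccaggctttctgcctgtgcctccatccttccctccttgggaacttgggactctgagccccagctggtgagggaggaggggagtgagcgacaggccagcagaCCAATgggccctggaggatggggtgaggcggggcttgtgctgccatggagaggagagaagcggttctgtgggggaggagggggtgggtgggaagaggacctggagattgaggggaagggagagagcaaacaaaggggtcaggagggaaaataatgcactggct
EZH2: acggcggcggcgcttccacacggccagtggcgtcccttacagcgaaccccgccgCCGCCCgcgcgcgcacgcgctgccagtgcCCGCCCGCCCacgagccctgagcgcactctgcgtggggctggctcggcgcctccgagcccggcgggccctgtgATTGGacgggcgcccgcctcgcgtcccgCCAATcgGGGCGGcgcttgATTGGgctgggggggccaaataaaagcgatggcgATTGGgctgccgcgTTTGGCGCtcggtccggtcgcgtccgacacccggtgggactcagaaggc
CBX5: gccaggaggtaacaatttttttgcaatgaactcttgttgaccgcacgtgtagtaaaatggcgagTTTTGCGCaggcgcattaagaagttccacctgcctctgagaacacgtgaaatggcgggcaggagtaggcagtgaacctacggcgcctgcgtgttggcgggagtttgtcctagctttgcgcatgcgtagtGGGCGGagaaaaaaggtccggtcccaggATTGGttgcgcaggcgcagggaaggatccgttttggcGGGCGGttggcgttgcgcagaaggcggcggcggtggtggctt

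CG dinucleotides, the substrate of the DNMT proteins, numbered 30 in the DNMT1 promoter, 18 at the first, 46 at the second and 28 at the internal DNMT3A start, 46 at EZH2 and 25 at CBX5. The internal DNMT3B sequence held 3. The median over 35116 promoters in the table was 14, with quartiles of 4 and 28. The EZH2 promoter held 4 copies of CCAAT, 1 of TTTNGCGC and 4 of GGGCGG, of which a neighbouring pair overlaps. TTTNGCGC was found in 1.79% of all promoters in the table, and DNMT1 and CBX5 held 1 each. GGGCGG was found in 45.0% of all promoters and CCAAT in 34.6%. CBX5 held 2 copies of GGGCGG and 1 of CCAAT, the internal DNMT3A start held 4 of GGGCGG, and the DNMT3B sequence held 1 of CCAAT. The first DNMT3A start held none of the 7 searched, whereas the second held 3 of GGGCGG. In all 7 windows printed, the other 4 were not found as exact letters, and near matches were not searched. The NRF1 letters were found in 1.24% of all promoters, the CRE letters in 1.85%, the ETS letters in 10.3% and the YY1 letters in 2.89%. A match is a run of letters and not a measured binding site.

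Each of the 8 genes had at least 1 listed summit within 2 kb of its start. Over 4 kb tiles of chromosomes 1 to 22 and X, 13.6% held a summit. The gene start is the end of the span set by the strand of the gene, and spans are in whole kb, so distances from the start are uncertain by at least the rounding. For 7 of the genes the span and the RefSeq length in GRCh38.p14 differ by at most 1.09 kb. For DNMT3A the span is 111 kb and the RefSeq length 115 kb, and at which end they differ was not determined. The 39 summits at starts made up 20.97% of the 186 and lay in 4.88% of the window length. Their density was 1219 per Mb (95% exact Poisson interval 867 to 1666), against 236 per Mb (199.0 to 277) in the rest of the windows and 124 per Mb over the whole list. These intervals cover counting error only and take summits as independent. Neighbouring summits share a region and PCR copies of a molecule cannot be told from separate molecules, so the intervals are too narrow. By contrast, 3 of the 8 genes had a summit within 2 kb of the other end of the gene. How often other gene starts hold a summit was not analysed here, because no annotation of hg19 was used.

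**Figure D1:**
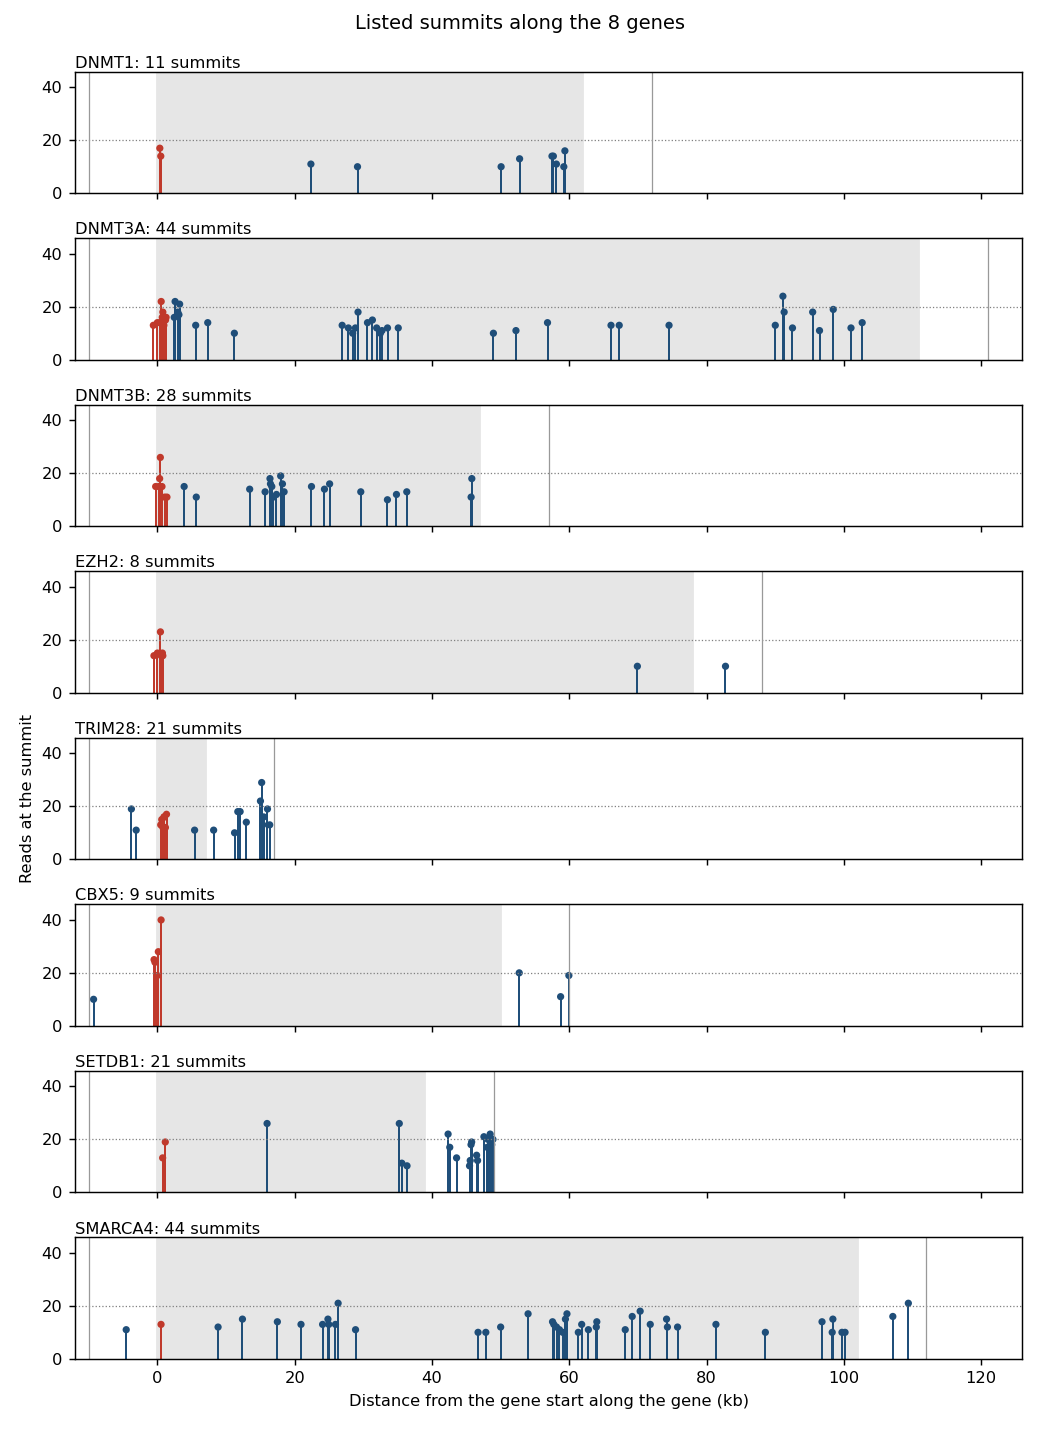
Each line is a listed summit, placed by its distance in kb from the gene start along the gene and as high as its read pileup. Summits within 2 kb of the start are red and the others blue, the gene span is grey, vertical lines bound the 10 kb margins, and the dotted line marks 20 reads. All 8 genes have red lines at 0, CBX5 reaches 40 reads, and the EZH2 and CBX5 spans are nearly empty past the start.

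Among the DNA methyltransferases, DNMT1 had 11 summits in 9 regions. The summits at its start had 17 and 14 reads in the region chr19:10305345-10305688, and the one with 17 reads, at position 10305662, had a fold enrichment of 5.98 and a −log10 q of 8.82. Reads here are the pileup recovered from the authors' fold and p-value, and the fold is over a background of 2.01 reads shared by the whole list. Past the start no summit was listed for 21.9 kb. The other 9 lay in the gene body with 10 to 16 reads, 5 of them within 1.88 kb near the far end, from 57.5 to 59.3 kb. The widest DNMT1 region measured 364 bp.

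DNMT3A, one of the 2 enzymes that set new methylation, had 44 summits in 34 regions, as many summits as SMARCA4. Its 9 summits at the start had 13 to 22 reads, and 7 of them lay in 1 region of 1201 bp, chr2:25564662-25565862. The highest of these, at position 25565461, had a fold of 7.65. Summits went on past the 2 kb limit: with neighbours within 3 kb joined, the group at the start held 16 and ran to 7.32 kb. Its summits of 22 reads at 2.566 kb and 21 reads at 3.226 kb are counted here as gene body. The summit with the most reads was not at the start but 91.1 kb into the gene, at position 25474897, with 24 reads, a fold of 8.31 and a −log10 q of 15.7. DNMT3A is known to have an internal promoter from which the shorter form DNMT3A2 is made. In the RefSeq table its most upstream internal start is 90.3 kb from the first, a distance within that build, and in the list 9 summits lay from 89.994 to 102.654 kb with 11 to 24 reads. A further 12 summits lay from 26.9 to 35.1 kb, none of 20 reads or more.

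DNMT3B, the other enzyme of new methylation, had 28 summits in 20 regions over 47 kb. Its 7 summits at the start had 15, 15, 18, 26, 15, 11 and 11 reads, in order along the gene. The one with 26 reads, at position 31350416, had a fold of 8.98 and lay in a region of 929 bp, chr20:31349897-31350825. A second group of 10 summits with 11 to 19 reads lay from 13.4 to 18.4 kb. The only DNMT3B start in the RefSeq promoter table is 17.5 kb from the first base of the gene, again a distance within its own build, and its sequence is the one with 3 CG dinucleotides above. The group of 10 had no summit of 20 reads or more.

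Among the genes of histone H3 methylation, EZH2 had 8 summits in 5 regions, 6 of them at the start. These 6 had 14, 15, 23, 14, 15 and 14 reads along the gene, and the highest, at position 148581570, had a fold of 7.98 in a region of 804 bp, chr7:148580953-148581756. The gene body beyond held 1 summit, of 10 reads. The stretch without a summit measured 69.1 kb and was the longest in the 8 windows. The last summit, also of 10 reads, lay past the far end of the gene, where CUL1 is the next protein-coding gene in the RefSeq order.

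SETDB1 had 21 summits in 12 regions, but 15 of them lay past the end of the gene, on the side of the next gene, CERS2, which encodes a ceramide synthase. At its start there were 2 summits, of 13 and 19 reads, in the region chr1:150898596-150899166 of 571 bp. In the gene body 4 summits were listed. The one with the most reads lay 15965 bp in, at position 150913966, with 26 reads and a fold of 8.98 in a region of 1153 bp that held no other summit. Another body summit had 26 reads as well, 35.2 kb in. The widest region of all 8 windows, 1860 bp at chr1:150945968-150947827, lay on the CERS2 side and ran over the window edge, with 5 of its 10 summits inside. Whether it belongs to CERS2 was not analysed here.

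TRIM28, the partner of SETDB1, is the shortest gene at 7 kb and had 21 summits in 12 regions. At the start, 7 summits with 13, 15, 12, 16, 16, 12 and 17 reads shared 1 region of 897 bp, chr19:59055453-59056349. The highest, at position 59056316, had a fold of 5.98. Of the other 14 summits, 11 lay past the gene end, 2 upstream and 1 in the gene body. The summit with the most reads of the window, 29 reads and a fold of 9.97 at position 59070179, was among those past the end, 15.2 kb from the start. CHMP2A, a gene of the ESCRT machinery, is the next gene past the end and ZBTB45 is the next before the start. Whether the summit of 29 reads lies at CHMP2A or at a gene further on was not analysed here. With no margin the TRIM28 count was 8, so most of its listed summits were outside the gene.

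CBX5, whose product binds methylated lysine 9, had few summits but the one with the most reads in the 8 windows. Its 9 summits lay in 6 regions, and the 5 at the start had 25, 24, 19, 28 and 40 reads along the gene. The summit of 40 reads at position 54673477 had a fold of 13.6 and a −log10 q of 34.7, in a region of 728 bp, chr12:54673323-54674050. Of all summits in the list, 2.41% had as many reads or more. The CBX5 start is known to face that of HNRNPA1, an RNA-binding protein gene that is also the next gene in the RefSeq order, so reads there cannot be assigned to 1 of the 2 genes. The rest of the gene body held no listed summit, and the nearest beyond the start lay 52.2 kb further on, past the gene end. This empty stretch includes the place of a second CBX5 start, 20.5 kb from the first in the RefSeq table and its build.

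SMARCA4 showed the opposite layout, with 1 summit of 13 reads at its start and 40 in the gene body. The start summit at position 11071518 had a fold of 4.65 in a region of 179 bp, and 76.0% of the summits in the list had as many reads or more. The body summits had 10 to 21 reads in regions of at most 454 bp. The one with 21 reads and a fold of 7.31, at position 11097314, lay 26.3 kb in, within a group of 6 summits from 24.1 to 28.9 kb. RefSeq lists a second start 23.1 kb from the first. The largest groups were 12 summits from 57.5 to 64.0 kb and 7 from 68.1 to 75.8 kb.

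The 3 layouts can be set side by side by the density in the gene body past 2 kb from the start. It was 400.0 per Mb in SMARCA4 (95% exact Poisson interval 286 to 545), 467 in DNMT3B (289 to 713) and 321 in DNMT3A (224 to 447). It was 150.0 in DNMT1 (68.6 to 285) and 108 in SETDB1 (29.5 to 277), both with intervals that include the 124 per Mb of the whole list. In EZH2 it was 13.2 (0.333 to 73.3) and in CBX5 it was 0 (up to 76.9), both below the whole list. Set against the 500 kb on each side of the window, the order differs. The body intervals of SMARCA4, DNMT3B, DNMT1 and EZH2 include the values there, of 353, 512, 271 and 56.0 per Mb. The DNMT3A interval lies above its value of 53.0, and those of CBX5 and SETDB1 lie below theirs, of 609 and 381. In TRIM28 the body past the start is 5 kb, with 1 summit, and allows no statement. The list holds only summits of 10 reads or more, so a stretch without summits is not shown to be closed.

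**Figure D2:**
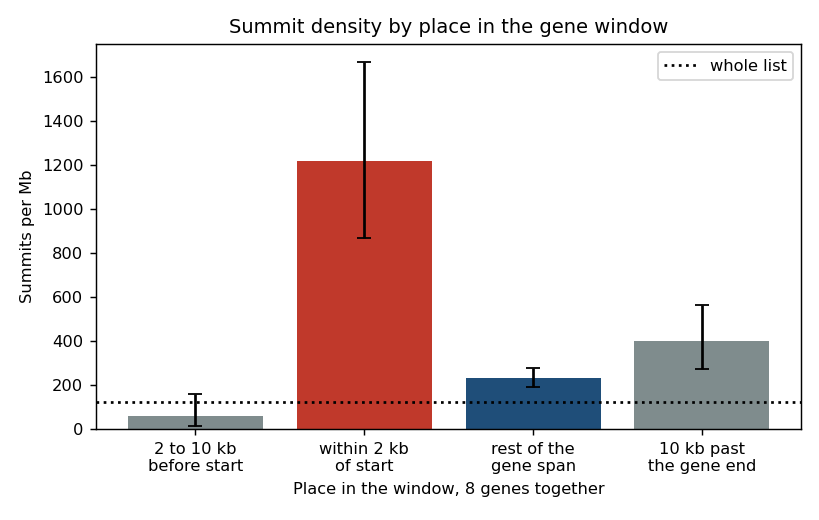
Bars give the number of listed summits per Mb, 8 genes together, in 4 places of the gene window, with 95% exact Poisson intervals. The dotted line is the whole list, at 124 per Mb. The bar within 2 kb of the start stands at 1219 per Mb, against 62.5 upstream of it, 231 in the rest of the gene and 400.0 past the gene end. Of the 32 summits past gene ends, 15 were in the SETDB1 window and 11 in that of TRIM28.

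The windows together held 284 summits per Mb (95% exact Poisson interval 244 to 327), against 124 per Mb in the whole list, a ratio of 2.30. This ratio is not one over the surroundings of the genes. Only 4 of the 8 windows were denser than the 500 kb on each side, and window over flank ran from 0.211 in CBX5 to 6.34 in DNMT3A. This excess was one of summits with few reads. Of the 186 summits, 22 (11.8%, 95% Wilson interval 7.94 to 17.3%) had 20 reads or more, against 26.5% of the whole list. Counting only summits of 20 reads or more, the ratio of densities was 1.02, a value that rests on these 22 and averages unlike places. Of the 22, 7 lay at starts, in 4.88% of the window length, and 4 of those 7 were at CBX5. Gene bodies held 6 in 73.2% of the length, and the stretches past gene ends 9 in 12.2%. The median was 14 reads in the windows and 15 in the whole list. No window summit reached 50 reads, against 5358 (1.44%) in the whole list. With so small a share in the list, this absence among 186 summits is not read as a trait of these genes. The SETDB1 window held 7 of the 22, of which 5 lay past the gene end on the CERS2 side, and the CBX5 window held 5. Without SETDB1 the share was 9.09%.

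**Figure D3:**
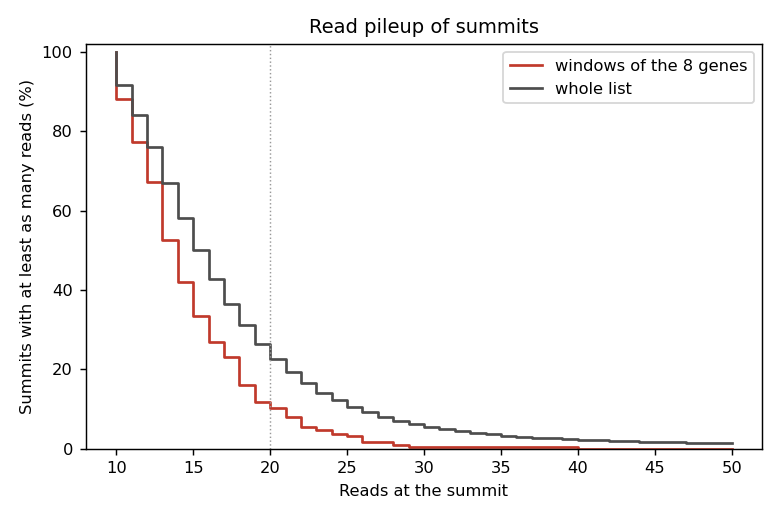
The share of summits, in %, with at least the number of reads on the horizontal axis, for the windows of the 8 genes (red) and the whole list (dark grey). At 20 reads (dotted line) the windows are at 11.8% and the whole list at 26.5%.

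At starts, 7 of 39 summits (17.9%, 95% Wilson interval 8.98 to 32.7%) had 20 reads or more, and this interval includes the 26.5% of the whole list. Of these, 4 were at CBX5, and without CBX5 the share was 8.82% (3.05 to 22.96%). In gene bodies 6 of 111 did (5.41%, 2.50 to 11.3%), and past gene ends 9 of 32 (28.1%, 15.6 to 45.4%). Of those 32 summits, 15 were in the SETDB1 window and 11 in that of TRIM28. By gene, 4 of 8 starts held a summit of 20 reads or more: DNMT3A, DNMT3B, EZH2 and CBX5. Of 4 kb tiles, 4.69% did. Starts with a region of more than 1 summit were found in 7 of 8 genes, all but SMARCA4, against 5.58% of tiles. In 4 of the 8 genes, DNMT1, DNMT3B, EZH2 and CBX5, the summit with the most reads of the window was at the start.

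Regions were wider at starts than elsewhere in the windows. The 15 regions with a start summit had a median width of 398 bp, against 172 bp for the other 121 and 208 bp over the whole list. Regions of 500 bp or more numbered 12 of 136 (8.82%) in the windows, against 17.5% of the whole list, and 7 of the 12 were at starts, in 6 genes. Regions with more than 1 summit numbered 26 (19.1%), against 28.2% of the whole list. By 10 kb bins, 46 of 69 in the windows held a summit (66.7%, 95% Wilson interval 54.9 to 76.6%), against 21.9% of bins on chromosomes 1 to 22 and X and 24.3% on the chromosomes of these genes. Bins beside the genes were not counted separately. The share per gene ran from 3 of 10 bins in EZH2 to 3 of 3 in TRIM28.

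The surroundings of the genes differed widely. DNMT3A stood out from its neighbourhood, with 336 summits per Mb (95% exact Poisson interval 244 to 451) against 53.0 in the 500 kb on each side and 34.9 over chromosome 2. TRIM28 had 778 (481 to 1189) against 235 beside it, with only 0.515 Mb of flank on the chromosome, and 229 over chromosome 19. CBX5 lay the other way, with 129 (58.8 to 244) against 609 beside it, as did DNMT1, with 134 (67.0 to 240.0) against 271. Both depend on the margin: with 25 kb the CBX5 count was 45 and not 9, an interval of 328 to 602 against 591 beside it. The DNMT1 count was then 28 and not 11, and its interval included the value beside it with 25 kb and with no margin. DNMT3A and TRIM28 had intervals above the value beside them at all 3 margins. All these intervals take summits as separate counts though many share a region, and are thus too narrow. With no margin, 7 of the 8 TRIM28 summits lay in 1 region. For DNMT3B, with 418 against 512, SETDB1, with 356 against 381, SMARCA4, with 361 against 353, and EZH2, with 81.6 against 56.0, the interval of the window included the value beside it. At other margins this changed for DNMT3B, with 234 to 478 against 517 at 25 kb, and for SETDB1, with 56.5 to 335 against 395 at no margin and 456 to 792 against 349 at 25 kb. DNMT1 and SMARCA4 lie less than 1 Mb apart on chromosome 19, and their intervals of 67.0 to 240.0 and 262 to 484 per Mb do not overlap. With no margin they do, at 88.6 to 317 and 288 to 545. All but EZH2 had a higher density than the whole list, though the intervals of DNMT1 and CBX5 include the 124 per Mb of the list, and 5 of 8 a higher density than their own chromosome, without DNMT1, EZH2 and CBX5.

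**Figure D4:**
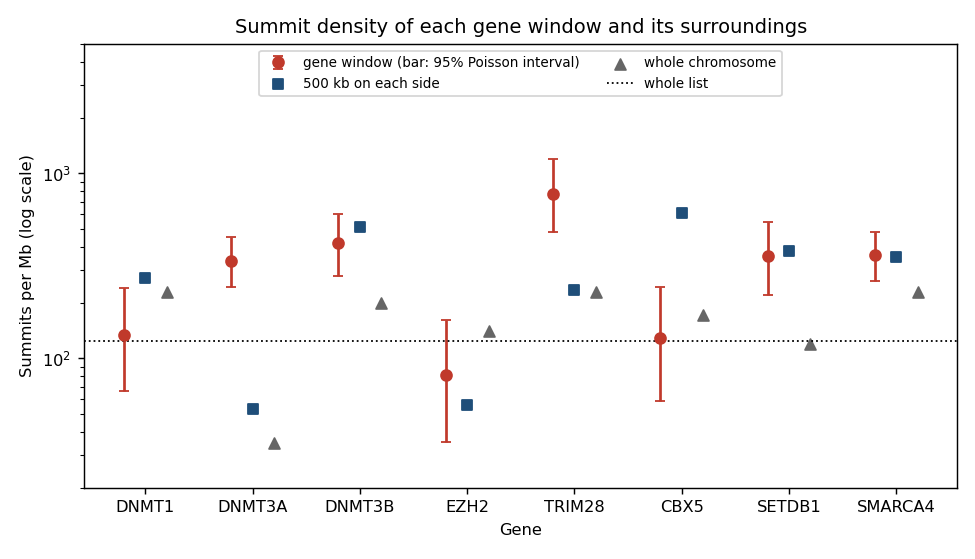
Summits per Mb on a log scale for each gene window (red, with 95% exact Poisson interval), the 500 kb on each side (blue squares) and the whole chromosome (grey triangles). The dotted line is the whole list. DNMT3A and TRIM28 lie above their surroundings, and CBX5 and DNMT1, at this margin of 10 kb, below the flanks beside them.

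With no margin beside the genes 142 summits were left. Over the 16 window edges the nearest summit inside had 10 to 21 reads, with a median of 14.5, and the nearest outside had 11 to 31, with a median of 13.5. The closest pair was at the CERS2 side of SETDB1, with 20 reads 133 bp inside and 23 reads 127 bp outside.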

How the data were processed

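ATAC-seq libraries of 2 multiH1 knock-down and 2 control samples were processed by the authors with Bowtie 1.1.2, hg19 and MACS2, according to the submitters' processing notes. MACS2 options, duplicate handling, pooling and the samples behind the list are not given in the sources used. The deposited list gives, per summit, the authors' fold enrichment, a ratio to background. The deposited p-value and q-value columns are −log10 values. The score column deposited by the authors is derived from the p-value and was not used further. The depth per sample is unknown.

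Positions are hg19, counted from 1. Each line is 1 summit, and lines with the same start and end form 1 region. Taking the fold as (pileup + 1) / (background + 1) and p as the upper Poisson tail, all 156 distinct pairs of fold and p with −log10 p under 250 (369960 lines) gave a background of 2.01 reads. With it, the folds of all 371521 lines gave whole pileups (tolerance 0.02 reads). On 500 simulated lines the pileup was recovered in 99.4%. Shares carry 95% Wilson intervals and densities exact Poisson intervals. Both take the counted items as independent, which summits of the same region are not. Chromosome densities use the length between the outermost listed regions. Genome bins leave out those lying wholly in the stretch without regions at the centromere.

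Gene spans are in whole kb, as set for this work. Strands are background knowledge and matched the RefSeq promoter table for 7 genes, all but TRIM28. All 8 genes are named, each with its summit of most reads in the window and at the start, and its widest region. Neighbour genes come from the order of RefSeq genes in GRCh38.p14. Knock-down and control were not tested against each other, since no column belongs to a sample. The other genes of DNA methylation and heterochromatin were not analysed here, since no annotation of hg19 was used. The genes and lists were chosen with earlier results of these data known. Python 3.11.15, numpy 2.4.6, scipy 1.17.1, pandas 2.3.3 and matplotlib 3.10.9 were used.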

Additional observations from a re-analysis of the deposited data

How the results depend on the processing

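The 8 genes with a summit at the start stayed 8 at 1 kb and 5 kb, with no margin, with a margin of 25 kb and with each region counted once, and became 7 in the upper 50% of summits by fold and 4 at 20 reads or more. The density ratio of 2.30 was 2.67 with a margin of 25 kb, 3.13 with each region counted once, 3.13 without chromosome ends and centromere flanks, 1.66 in the upper 50% by fold and 1.02 at 20 reads or more. It ran from 2.12 without TRIM28 to 2.58 without EZH2, an alternative chosen after the data were seen, as was the share of strong summits without each gene (9.09 to 14.1%). The 186 summits became 296 with a margin of 25 kb, 78 in the upper 50% by fold and 22 at 20 reads or more, by construction. The share of 20 reads or more (11.8%) was 7.75% with no margin, 28.2% in the upper 50% by fold (whole list 45.6%) and 0.538% at 30 reads or more (whole list 6.22%), below the whole list in each alternative run. The share of 10 kb bins (66.7%) was 43.5% in the upper 50% by fold, 20.3% at 20 reads or more and 50.4% in bins of 5 kb. The share of genome bins was not computed under these settings, so the 21.9% for all summits is no baseline for them. Over 4 kb tiles of the genome the share was 13.6% for all summits and 4.69% at 20 reads or more. Where the construction does not show it, the cause was not tested. The densities of single genes beside their flanks at other margins, also chosen after the data were seen, are given with those values. No paired analysis was possible because no column of the list belongs to a sample, and therefore no replicate was left out. The minimum of 10 reads over a background of 2.01 limits what the list can show.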
